A study of Rattus norvegicus with 12 samples.

Results

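The cytosolic ribosomal protein genes were taken by name, as the genes whose probe set carries a single symbol of the large subunit (Rpl), small subunit (Rps) or stalk (Rplp) series. The S6 kinase genes, which only share the Rps prefix, were left out. Of the 14217 genes with a single symbol, 47 belonged to this group, on 52 probe sets. The probe set with the highest mean signal stood for each gene, and the 5 dimmer probe sets were kept apart. Rat F111 cells, an established line of Fischer rat fibroblasts, were held for 16 h on agarose or on uncoated plastic. They could not attach to agarose (NA16) and attached to plastic (A16). The paper calls the line normal and also reports aneuploidy in it. Both states were grown in the same serum-containing medium, and labelled RNA of each was hybridised to Affymetrix rat arrays. Each state had 3 arrays, which are biological replicate 1, technical replicate 2 and biological replicate 2, and are given in that order throughout. The technical array was averaged with biological replicate 1, so that n = 2 replicates per state. NA16 cells were collected after a period in which much of a detached culture dies, and the sources used here do not say whether dead cells were removed before RNA was extracted. These are bulk samples, so fewer cells of a type and less RNA per cell cannot be told apart.

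The ribosome is built from a small (40S) and a large (60S) subunit, each of which holds ribosomal RNA and a fixed set of proteins that are needed in equal numbers. The mRNAs of these proteins are among the most abundant in a growing cell. Most start with a C followed by a run of pyrimidines, the 5′ terminal oligopyrimidine (TOP) tract, through which mTOR signalling and the binding protein Larp1 set how strongly they are translated, so that output can change without a change in mRNA level. Several members have paralogues, such as Rpl3l, Rpl7l1, Rpl26l1 and Rps27l, which are expressed at lower levels or in fewer tissues than the gene they resemble.

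The annotated starts of a few members are printed first, because the pyrimidine tract is the sequence feature that the family shares and that the selection by name did not use. Of the 47 genes, 42 matched the RefSeq start-site table (build GRCr8). A tract was counted where 7 or more bases in a row, the first a C and every other one a C or a T, lay on the gene's strand within 20 bases of the annotated start. It was present in 26 of 42 members (61.9%), against 5905 of all 33469 start regions (17.6%). A C with 4 further pyrimidines exactly at the annotated start was found in 12 members (28.6%), against 2.63% of all start regions. Each window below has 30 bases, 15 of them before the start, with the tract in capitals. Shown first are 4 members with bright probe sets, whose windows lie at chr10:83519049-83519078 (plus strand, Rpl19), chr12:46718376-46718405 (minus, Rplp0), chr7:10068101-10068130 (minus, Rps15) and chr16:96502-96531 (plus, Rps24).
Rpl19: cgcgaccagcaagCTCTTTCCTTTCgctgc
Rplp0: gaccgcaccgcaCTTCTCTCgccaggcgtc
Rps15: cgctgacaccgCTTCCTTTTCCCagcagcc
Rps24: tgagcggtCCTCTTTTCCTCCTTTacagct
The next 4 are the members called as changed below, at chr10:17029014-17029043 (minus, Rpl26l1), chr9:21695703-21695732 (plus, Rpl7l1), chr8:76443643-76443672 (plus, Rps27l) and chr1:180009646-180009675 (minus, Rps13).
Rpl26l1: aaatgtcatttccgggcctgcgcacacacc
Rpl7l1: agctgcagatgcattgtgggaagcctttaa
Rps27l: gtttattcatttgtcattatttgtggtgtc
Rps13: gccgtttcctacctcgttCTCTCTTTgctt
The windows of the paralogues Rpl26l1, Rpl7l1 and Rps27l held no such tract, and that of Rps13 held one of 8 bases. The printed windows were picked, and over all matched members a tract was present in 21 of 33 bright (63.6%) and 5 of 9 dim ones (55.6%), among them the paralogues Rpl3l and Rps4y2 with 8 bases each. A match or its absence describes the letters around an annotated start and nothing about translation.

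The fibroblast markers were mixed in level. Col1a1 and Col1a2, the chains of type I collagen, and the intermediate filament gene Vim had mean log2 signals of 14.28, 14.29 and 14.77 in NA16 cells and of 14.60, 14.52 and 14.63 in A16 cells. The proteoglycan genes Lum (6.86 to 7.74 in NA16 cells, 5.80 to 6.12 in A16 cells) and Dcn (5.56 to 6.20 in NA16 cells, 5.11 to 5.39 in A16 cells) were dim. Of the 10 fibroblast markers 4 were called higher (Pdgfrb by 1.40, Lum by 1.15, Dcn by 0.58 and Thy1 by 0.47) and 0 lower. Over all genes 21.9% were called higher and 16.9% lower, which is the background for every marker count here. The summed RMA signal of the 10 fibroblast markers ran from 93800 to 123000 in NA16 cells and from 111000 to 128000 in A16 cells. Among 7 macrophage markers 2 were called higher (Cd68 and Lyz2), the sums overlapped (1880 to 2190 in NA16 cells, 1850 to 2130 in A16 cells), and Ptprc, Adgre1 and Csf1r were at 6.08 or lower on every array. The other macrophage markers were brighter, with Itgam at means of 6.79 in NA16 cells and 6.81 in A16 cells and Cd14 at 10.17 in NA16 cells and 10.52 in A16 cells. Among 6 epithelial markers Krt8 and Epcam were called higher, and the sums were 2670 to 3130 in NA16 cells and 1240 to 1430 in A16 cells. Most of these sums was the signal of Krt8, by far the brightest, with means of 11.38 in NA16 cells and 10.12 in A16 cells. Krt18 (-0.24), Cldn4 (-0.13), Krt19 (0.10) and Cdh1 (0.09) were dim and did not pass, and Krt18 was lower on every NA16 array. Of 5 endothelial markers Pecam1 was called higher and Egfl7 lower, with sums of 722 to 779 in NA16 cells and 815 to 905 in A16 cells. The part of these marker changes in the values below was not tested.

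Most ribosomal protein transcripts had nearly the same signal in detached and attached cells. By limma with an adjusted p below 0.05, 1 of the 47 genes was called higher in NA16 than in A16 cells (Rpl26l1), where 21.9% of all genes were. Likewise 3 were called lower (Rpl7l1, Rps27l and Rps13), where 16.9% of all genes were. The other 43 did not pass. The median log2 change over the 47 members was 0.05, beside 0.01 over all genes. It was -7e-04 in the PLIER values, 0.0147 without A16 replicate 2 and 0.0854 without A16 replicate 1, so neither its size nor its sign was stable. The 3 NA16 and 3 A16 arrays did not overlap in 15 members (31.9%), 11 with NA16 above and 4 with NA16 below, where they did not overlap in 51.7% of all genes.

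The members fell into a bright and a dim class. No member had a mean log2 signal between 11.38 (Rpl7l1) and 13.70 (Rpl21), and a line at 13, set after the values were seen, separated 37 bright from 10 dim members. Of the 50 genes with the highest signal 28 were members, and all 37 bright members stood among the first 100. All 4 called members were dim. They were 40% of the 10 dim members, which is near the 38.9% of all genes called, while 0 of the 37 bright members were called. The plot of change against signal shows both classes.

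**Figure D1:**
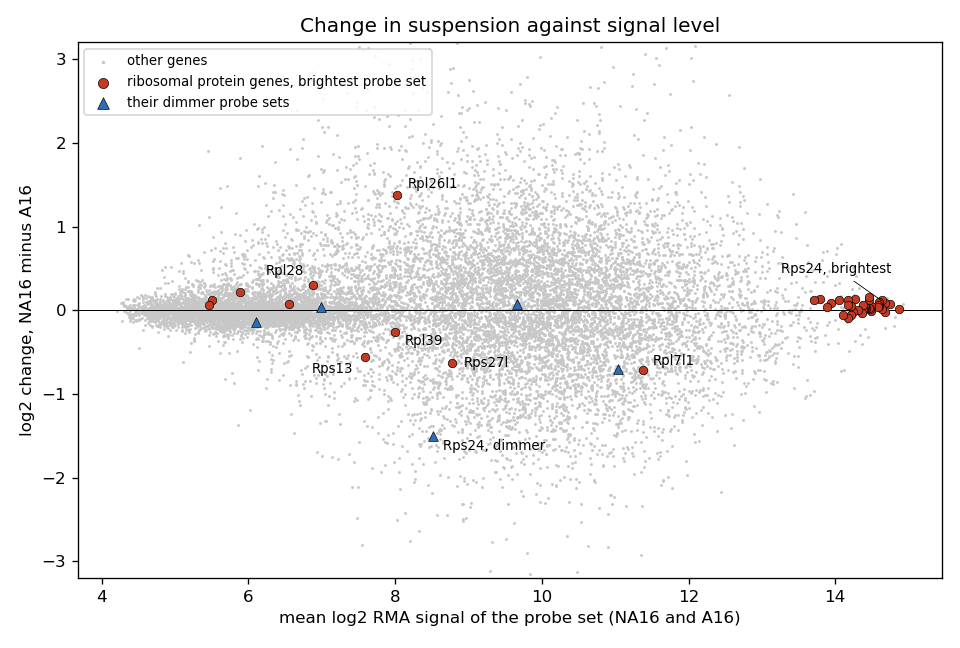
Log2 change (NA16 minus A16, y axis) against mean log2 RMA signal over both states (x axis). Red circles are the brightest probe sets of the 47 ribosomal protein genes, blue triangles their 5 dimmer probe sets and grey points the other genes, of which 32 lie beyond the y axis limits of 3.2. The 37 bright members form a tight group near a change of 0 at the right edge, while called members lie between log2 signals of 7.60 and 11.38.

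Among the 37 bright members the log2 changes ran from -0.09 (Rps9) to 0.16 (Rps28), and the 95% intervals of all 37 lay between -0.40 and 0.43. By limma the lowest adjusted p was 0.368, and 0 of the 37 reached an unadjusted p below 0.05. Over all 14217 genes 6437 did. The moderated SE was 0.1085 or more in each of the 37, and 0.1085 was the lowest of any gene. With such an SE no change of 0.16 or less can reach an unadjusted p below 0.05, however closely the replicates agree. The count of 0 therefore cannot tell small steady changes from no change. In 33 of the 37 the change was smaller than the widest gap between arrays of one state, whose median was 0.11. Their median change was 0.04 with 29 above 0 and 8 below 0 in the RMA values, and it was -0.0011 in the PLIER values of the same arrays, so no common direction held under both algorithms. PLIER changes ran from -0.21 to 0.12, and 0 were called. Quantile normalization, a step of RMA, gives all arrays the same distribution of signals, and 28 of the 50 brightest genes were members. A shift shared by these transcripts could therefore be reduced in the RMA values, which was not tested.

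**Figure D2:**
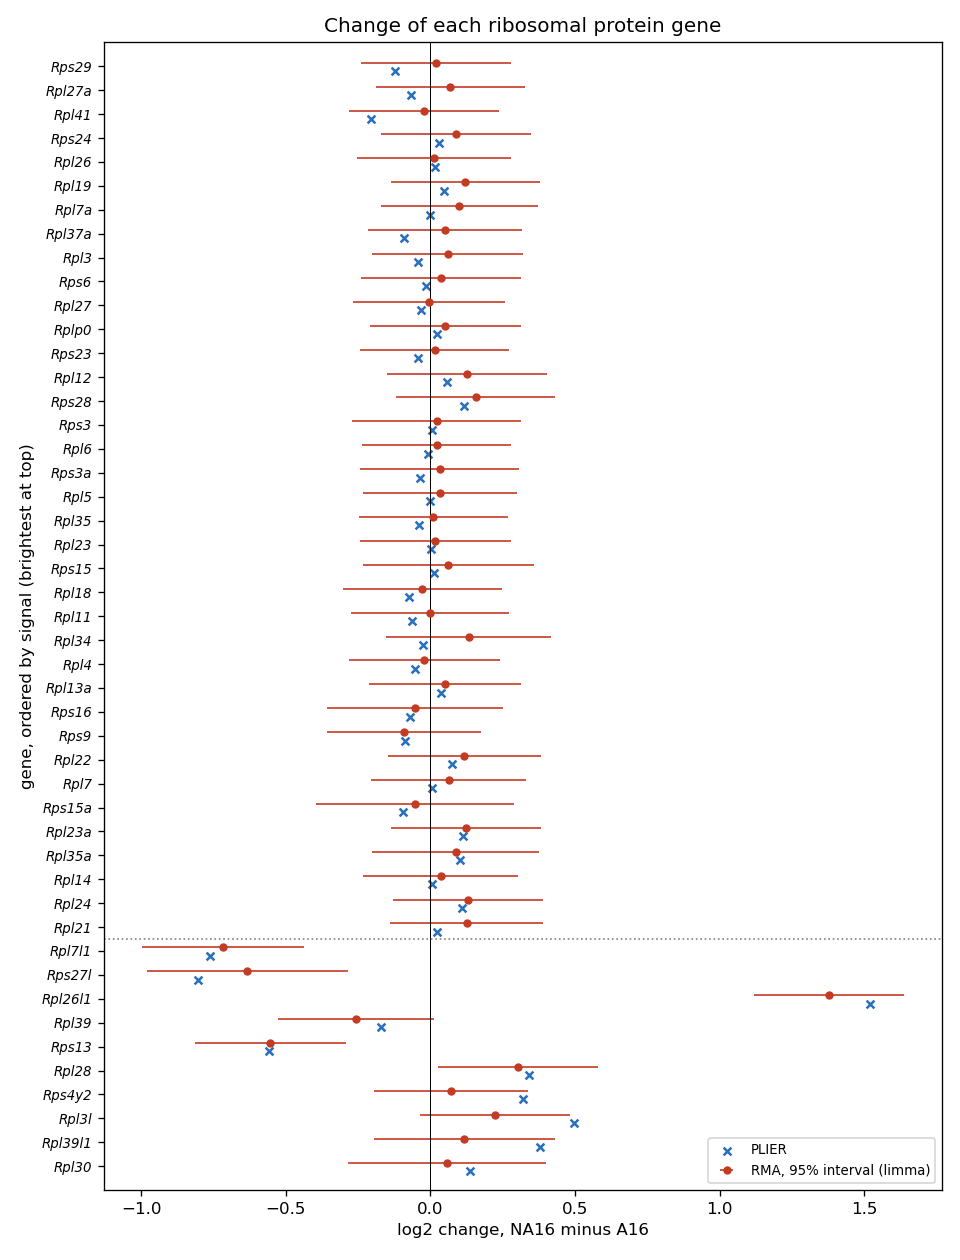
Log2 change (NA16 minus A16, x axis) of each ribosomal protein gene, with genes ordered down the page by signal. Red points and lines give the RMA change with its 95% interval from limma, blue crosses the PLIER change of the same arrays, and the dotted line separates the 37 bright from the 10 dim members. All bright members lie between -0.09 and 0.16, while the 10 dim members run from -0.72 (Rpl7l1) to 1.38 (Rpl26l1).

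The large subunit supplied 26 of the bright members, with a median change of 0.05, and the small subunit 11, with a median of 0.02. Rpl19, a large subunit protein often used as a reference transcript, had log2 signals of 14.70, 14.69 and 14.70 in NA16 cells against 14.54, 14.61 and 14.58 in A16 cells. The NA16 arrays all stood above the A16 arrays, but by little, and the change of 0.12 ± 0.11 (SE, n = 2 per state) did not pass (limma adjusted p = 0.472). That moderated SE, 0.1085, is at the lowest of any gene. The replicates of Rpl19 had SDs of 0.0072 in NA16 cells and 0.0045 in A16 cells. Rplp0, which anchors the stalk that recruits elongation factors, had 14.49, 14.56 and 14.52 in NA16 cells and 14.45, 14.55 and 14.43 in A16 cells. These overlapped, with a change of 0.05 and a 95% interval of -0.21 to 0.31. The other stalk genes Rplp1 and Rplp2 had no probe set with a single symbol and are not analysed here.

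Rpl5 and Rpl11, which with 5S rRNA can bind Mdm2 and so link ribosome assembly to p53, did not pass. Rpl5 had 14.42, 14.43 and 14.43 in NA16 cells and 14.35, 14.34 and 14.44 in A16 cells, a change of 0.03. Rpl11 had 14.42, 14.33 and 14.25 in NA16 cells and 14.34, 14.34 and 14.29 in A16 cells, a change of -0.0023. In both genes the arrays of the states overlapped. Rpl5 and Rpl11 were chosen after their values were seen.

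In the small subunit, Rps6, the substrate of the S6 kinases, had 14.66, 14.59 and 14.58 in NA16 cells and 14.62, 14.65 and 14.49 in A16 cells, which overlapped (change 0.04). Rps28 had the largest change of the bright members, with 14.41, 14.54 and 14.61 in NA16 cells against 14.36, 14.34 and 14.42 in A16 cells. Its lowest NA16 array lay below its highest A16 array, and the change of 0.16 did not pass (limma adjusted p = 0.368). Rps9 had the largest decrease among them, with 14.19, 14.16 and 14.10 in NA16 cells against 14.21, 14.18 and 14.26 in A16 cells, which overlapped as well (change -0.09, limma adjusted p = 0.606). Rps29, the brightest member, changed by 0.02, and the others among the 12 brightest, Rpl27a, Rpl41, Rps24, Rpl26, Rpl7a, Rpl37a, Rpl3 and Rpl27 beside Rpl19, Rps6 and Rplp0, lay between -0.02 (Rpl41) and 0.12 (Rpl19).

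In 8 bright members the arrays of the states did not overlap, all with NA16 above (Rpl27a, Rps24, Rpl19, Rpl3, Rpl34, Rpl23a, Rpl24 and Rpl21). This was 21.6% of the class, against the 51.7% given above for all genes. The largest of these changes was that of Rpl34 (0.13), whose PLIER change was -0.03.

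Among other genes of high signal a larger share was called. The 62 other genes at least as bright as the dimmest bright member changed by -0.97 to 0.80, and 20 of them (32.3%) were called, 10 higher and 10 lower, where 0 of the 37 bright members were. The median signal of the 62 was 14.08, below the 14.41 of the bright members, so the sets were not matched on signal. The arrays of these other genes did not overlap in 66.1%. Above a log2 signal of 14, the 40 other genes had a median absolute change of 0.19 and 27.5% were called, against a median of 0.05 and 0% in the 33 members there. The median SE of the change was 0.112 in those members and 0.114 in those other genes. Both are moderated SEs near 0.1085, the lowest of any gene. Among other genes the median absolute change was 0.08 between 4 and 6, 0.14 between 6 and 8, highest at 0.52 between 8 and 10, and then lower again, at 0.33 between 13 and 14 and 0.19 above 14. The arrays' highest signals were 14.91 to 15.02. The part of the signal level in the members' small changes was not tested.

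**Figure D3:**
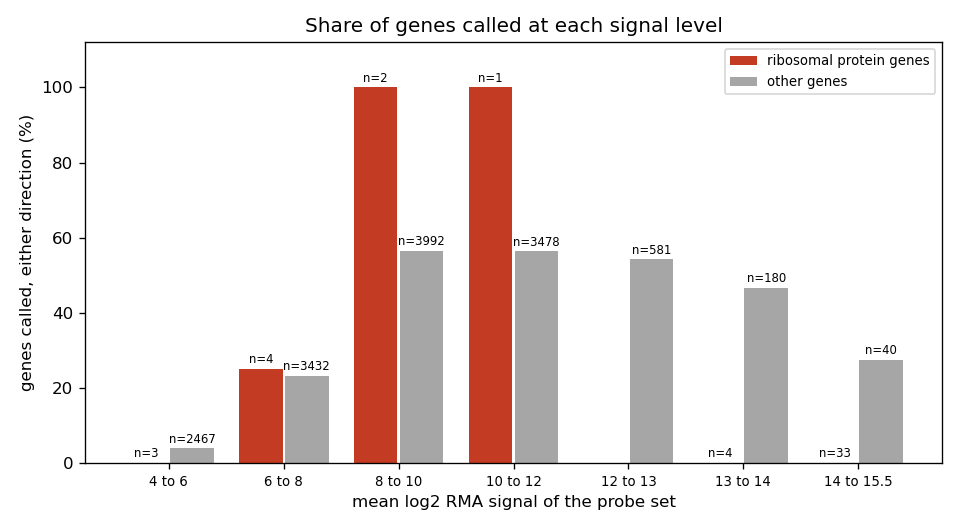
Share of genes called in either direction (percent, y axis) by mean log2 RMA signal (x axis), for ribosomal protein genes in red and other genes in grey, with the number of genes above each bar. In the 2 brightest bins 0 of 4 and 0 of 33 ribosomal protein genes were called, against 46.7% and 27.5% of the other genes, and in the bins from 4 to 12 the members are 10 in all.

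The one member that rose was Rpl26l1, a paralogue of Rpl26 that encodes a nearly identical protein. It had log2 signals of 8.80, 8.69 and 8.70 in NA16 cells against 7.22, 7.49 and 7.33 in A16 cells. Every NA16 array was more than 1 log2 unit above every A16 array. The change was 1.38 ± 0.11 (SE, n = 2 per state), or 2.60-fold, with a 95% interval of 1.12 to 1.64 and a limma adjusted p of 0.000168, and 1.52 in the PLIER values. Rpl26 itself had 14.72, 14.64 and 14.61 in NA16 cells and 14.69, 14.66 and 14.59 in A16 cells. Those arrays overlapped, and its change of 0.01 had a 95% interval of -0.26 to 0.28, which does not meet that of Rpl26l1.

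Rpl7l1, a paralogue of Rpl7 that in human cells is found in nucleolar precursors of the large subunit, fell, and it did so on both of its probe sets. The brighter one had 10.70, 11.18 and 11.10 in NA16 cells against 11.69, 11.76 and 11.75 in A16 cells. All NA16 arrays were below all A16 arrays, and biological replicate 1 of NA16 was the lowest. The change was -0.72 ± 0.12 (SE), 1.65-fold lower in NA16 cells, with a limma adjusted p of 0.00294. The dimmer one had 10.48, 10.86 and 10.71 in NA16 cells against 11.34, 11.49 and 11.36 in A16 cells, a change of -0.70 (limma adjusted p over all probe sets = 0.00475). Rpl7 had 14.27, 14.23 and 14.17 in NA16 cells and 14.17, 14.19 and 14.11 in A16 cells, which overlapped, with a change of 0.06.

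Rps27l, a paralogue of Rps27 and in human cells a p53 target, fell as well. It had 8.48, 8.65 and 8.36 in NA16 cells against 8.77, 9.13 and 9.25 in A16 cells. The arrays did not overlap, but the highest NA16 array lay just below the lowest A16 array, which was biological replicate 1. The change was -0.63 ± 0.15 (SE), 1.55-fold lower in NA16 cells, with a limma adjusted p of 0.0127. Rps27 had no probe set with a single symbol and is not analysed here.

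Rps13, a small subunit protein that lies near a contact with the large subunit, was the only called member not named as a paralogue. Its single probe set was dim, with 7.59, 7.01 and 7.34 in NA16 cells against 7.94, 7.83 and 7.86 in A16 cells. The mean signal was 7.60, far below the 13.70 of the dimmest bright member. Whether this probe set reads the main Rps13 transcript was not tested. The NA16 arrays were all lower, and technical replicate 2 of NA16 was the lowest. The change was -0.55 (1.47-fold lower in NA16 cells, limma adjusted p = 0.00667).

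The calls of Rps13 and Rps27l depended on how the technical array was used. With it left out, the adjusted p was 0.0806 for Rps13 (change -0.44) and 0.0662 for Rps27l (-0.59). With it averaged with biological replicate 2, it was 0.0572 for Rps13 (-0.51) and 0.0665 for Rps27l (-0.49). Over all genes the technical array of NA16 correlated more closely with biological replicate 2 (Pearson's r = 0.9974) than with biological replicate 1 (0.9923), while that of A16 was closest to biological replicate 1 (0.9975, against 0.9935). Without A16 biological replicate 2, Rps27l had an adjusted p of 0.0672 (-0.48).

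**Figure D4:**
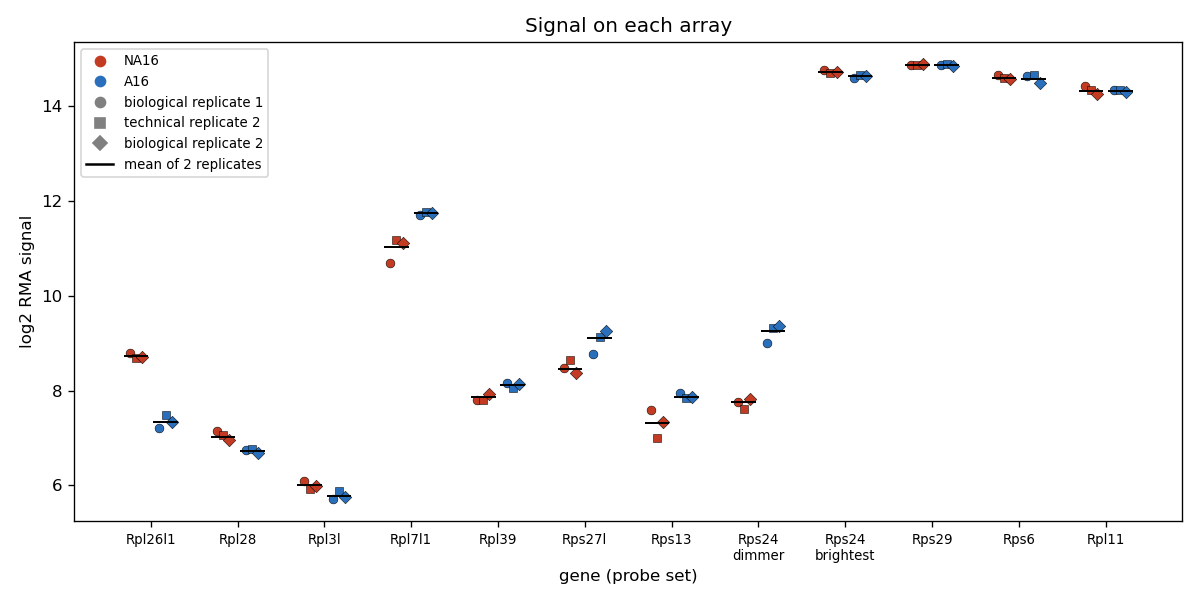
Log2 RMA signal (y axis) on each array for 12 probe sets of ribosomal protein genes (x axis), with NA16 in red left of A16 in blue. Circles are biological replicate 1, squares technical replicate 2, diamonds biological replicate 2, and bars the mean of the 2 replicates. The states stand apart for Rpl26l1, Rpl7l1 and the dimmer probe set of Rps24, while Rps29, Rps6 and Rpl11 lie at the same height in both.

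The other 6 dim members did not pass. Rpl39, one of the smallest large subunit proteins, had 7.81, 7.80 and 7.92 in NA16 cells against 8.17, 8.05 and 8.14 in A16 cells. The arrays did not overlap and NA16 was lower (change -0.26, limma adjusted p = 0.125). Its signal depended on the algorithm, since PLIER gave means of 12.19 in NA16 cells and 12.36 in A16 cells, which were still below those of all 37 bright members. Rpl28 had 7.14, 7.05 and 6.96 in NA16 cells against 6.75, 6.77 and 6.69 in A16 cells, with NA16 higher on every array (change 0.30, limma adjusted p = 0.0853).

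Rpl3l, which replaces Rpl3 in mouse heart and skeletal muscle, had 6.10, 5.93 and 5.99 in NA16 cells against 5.71, 5.88 and 5.76 in A16 cells. NA16 was again higher on every array, with a change of 0.22 that did not pass in the RMA values (limma adjusted p = 0.165) and one of 0.50 that did in the PLIER values (limma adjusted p = 0.0362). Rpl3 changed by 0.06. Rps4y2 (0.07), Rpl39l1 (0.12) and Rpl30 (0.06) had overlapping arrays at mean signals of 6.55, 5.51 and 5.47, and Rps4x, which Rps4y2 parallels, had no probe set with a single symbol.

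The dimmer probe sets were tested in a fit of all 31042 probe sets. Of the 5, 0 were called higher, where 14.3% of all probe sets were, and 2 were called lower (Rps24 and Rpl7l1), where 13.2% of all probe sets were. Of the 5, 2 had an unadjusted p below 0.05, both of them the ones called lower. The dimmer Rps24 probe set had 7.76, 7.62 and 7.83 in NA16 cells against 9.00, 9.31 and 9.37 in A16 cells. Every NA16 array was more than 1 log2 unit below every A16 array. The change was -1.51 ± 0.12 (SE, n = 2 per state), 2.84-fold lower in NA16 cells, with a 95% interval of -1.82 to -1.20 and a limma adjusted p of 0.00086, and -1.54 in the PLIER values.

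The bright Rps24 probe set went slightly the other way. It had 14.76, 14.70 and 14.71 in NA16 cells against 14.60, 14.65 and 14.64 in A16 cells. NA16 was above A16 on every array, but the change of 0.09 did not pass, and its interval in the same fit of all probe sets, -0.16 to 0.34, does not meet that of the dimmer one. Which stretch of the transcript each probe set reads was not analysed here. The choice of probe set alone turned the gene's direction, to -0.71 with the mean of both (limma adjusted p = 0.00277) and to -1.51 with the dimmer one.

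The remaining dimmer probe sets, of Rpl14 (-0.14), Rpl3 (0.07) and Rpl7 (0.03), did not pass. That of Rpl7 had 7.50, 7.39 and 6.58 in NA16 cells and 6.86, 7.05 and 7.00 in A16 cells, so that its NA16 replicates spread by an SD of 0.61 around a change near 0.

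A further 36 probe sets listed a symbol of the family together with other symbols, and were not counted as members because they can be given no single name. Of these 33 were above log2 13, with changes from -0.11 to 0.22 (median 0.05), and 0 were called. Of the 3 below 13, 1 was called lower, with a change of -0.58 (limma adjusted p over all probe sets = 0.0191). Among 5 ribosomal protein genes whose names do not follow the pattern, 2 were measured, and neither was called. Rpsa, a small subunit protein also known as the laminin receptor, changed by 5e-04, and Rack1, the scaffold protein of the 40S head, by 0.04.

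Most of the listed genes of the machinery that escorts and assembles ribosomal proteins were called lower. Of 22 chaperones and late assembly factors, 16 were called lower and 2 higher, where 16.9% of all genes were lower and 21.9% higher, and the median change was -0.65. Their median signal was 9.74. Between log2 signals of 8 and 10 a larger share of genes was called, with 988 lower and 1268 higher of 3994. Heatr3, which carries Rpl5 into the nucleus in human cells, had 8.28, 7.94 and 7.76 in NA16 cells against 10.01, 9.66 and 10.04 in A16 cells (95% interval of the change -2.37 to -1.63, limma adjusted p = 0.00015). Bysl, needed for 40S maturation, had 8.69, 8.27 and 8.32 in NA16 cells against 10.41, 10.47 and 10.23 in A16 cells (-1.93). The arrays of the states lay more than 1 log2 unit apart in both genes. Mrto4, which holds the place of Rplp0 on large subunit precursors, changed by -1.72, and Tsr1, a late 40S factor, by -1.64.

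For several of these factors the client protein is among the members, so both values can be set side by side, although these pairs were chosen after their values were seen. Grwd1, the chaperone of Rpl3, changed by -1.32 (95% interval -1.58 to -1.06), where Rpl3 changed by 0.06 (-0.20 to 0.32). Bccip, the chaperone of Rpl23, changed by -1.19 (-1.64 to -0.73), where Rpl23 changed by 0.02 (-0.24 to 0.28). Rpf2 (-1.56) and Rrs1 (-1.40), which bring Rpl5, Rpl11 and 5S rRNA to the precursor, fell beside the changes of 0.03 and -0.0023 given for those 2 clients. These factors had lower signals than their clients, such as a mean of 9.27 for Grwd1 and 14.58 for Rpl3. Among other genes the median absolute change was 0.516 between log2 signals of 8 and 10 and 0.189 above 14. The part of the signal level in these pairs was not tested. The called factors that rose were Pdcd2 (0.61), a chaperone of Rps2, and Sbds (0.55), which releases Eif6 from new large subunits. Eif6 fell (-0.51), and Efl1, the GTPase that works with Sbds, changed by -0.0021 and did not pass.

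Other transcripts known to carry a TOP tract were called in both directions. Of the 10 measured of 14 listed, 3 were called higher and 1 lower, with a median change of 0.06, which is near the share of all genes called (21.9% higher and 16.9% lower). The initiation factors Eif4b (0.64), Eif3f (0.57) and Eif3h (0.51) rose and the elongation factor subunit Eef1d (-0.55) fell. The elongation factors Eef1a1 (0.07) and Eef2 (0.03), both as bright as the bright members, did not pass.

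Among the genes that control TOP transcripts, 6 of the 14 measured were called lower and 3 higher, where 16.9% of all genes were lower and 21.9% higher, so the count of higher ones is at the background. Their median signal was 10.67, and between log2 signals of 10 and 12, 981 of 3479 genes were called lower and 983 higher. The largest changes were in Eif4g1 (-1.96, limma adjusted p = 0.00153), the scaffold of the cap-binding complex, and Tsc1 (1.36, 0.000219), a brake on mTOR. The kinase gene Mtor had 8.23, 8.04 and 8.20 in NA16 cells against 9.39, 9.66 and 9.41 in A16 cells, below on every array by over 1 log2 unit (-1.30, 0.000248). Eif4e, which binds the cap, also fell (-1.15, 0.000845). These are mRNA signals and not kinase activity or translation.

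Of 8 transcription factors of ribosomal protein genes, 3 were called lower and 1 higher, not far from the 38.9% of all genes called in either direction. Hcfc1 (-1.37), Gabpb1 (-1.03) and Myc (-0.56) fell and Tbpl1 (0.70) rose, all by limma at adjusted p values of 0.00688 or below. Of 4 measured genes of the p53 arm of ribosomal stress, 2 were called, both higher, against the same background. Mdm4 (0.98) and Mdm2 (0.86) rose, while Cdkn1a (-0.20) and Cdkn2a (0.07) did not pass. The mitochondrial ribosomal protein genes, which serve the other ribosome of the cell, had 30 of 73 called lower and 6 higher (49.3%). Their median change was -0.34 (-0.35 in the PLIER values). Among the cytosolic genes 4 of 47 were called (8.51%), with a median of 0.05 (-7e-04 in the PLIER values). Signal levels differed too, with a median of 10.74 in the mitochondrial genes and 14.31 in the cytosolic ones. Of all genes, 56.5% were called between log2 signals of 10 and 12 and 15.1% above 14. The part of the signal level in this contrast was not tested.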

How the data were processed

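Labelled RNA of F111 cells in the NA16 and A16 states was hybridised to Affymetrix rat arrays, 6 in all. The authors scanned them and normalized them in Avadis by RMA (background correction, quantile normalization, median polish) and again by PLIER. The deposited values are normalized intensities on a linear scale, 12 columns for 6 arrays, with lowest RMA values of 16.1 to 17.6, which would understate changes of dim probe sets if a constant had been added. The RMA columns were taken to log2 and the PLIER columns were an alternative. The number of arrays limits the precision. The labels do not say what made a repeat biological, so the spread among these arrays may be technical. A limma p-value rests on that spread, partly pooled over all genes, and on nothing beyond these arrays.

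Gene symbols came from the platform annotation, in which 20826 probe sets had 1 symbol, 436 several and 9780 none here, and 57 controls were left out. Of those with 1 symbol, 20758 matched the RefSeq gene table (GRCr8) by Entrez identifier, which changed 0 symbols. Technical replicate 2 was averaged with biological replicate 1, to which the labels' technical numbering points. The NA16 minus A16 contrast was fitted with limma 3.58.1 (lmFit, eBayes) under R 4.3.3 (2 residual and 4.78 prior degrees of freedom), with Benjamini-Hochberg adjustment over 14217 genes, or over 31042 probe sets for the dimmer ones, and a threshold of 0.05. SEs, intervals and p-values are limma's moderated ones, in which a gene's variance is drawn towards a value common to all genes. The fit was tested on simulated data. A change is on the log2 scale of the deposited values, and a value given as fold is the matching ratio on the linear scale.

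Genes were named by rule: called members, the 12 brightest, the 8 of largest change, paralogues with the genes they parallel, the stalk genes, dimmer probe sets, and up to 4 called genes of each list. Others were named outside the rule. Among them are Rpl5, Rpl11, Rpl23, the assembly factors paired with clients, and Pdcd2, Sbds, Eif6 and Efl1. The members, lists and rule were chosen with earlier results of these data known. Alternatives were PLIER, 16 subtracted, median centring, repeated quantile normalization, a filter on dim probe sets, trended robust variance, other uses of the technical array, the replicate block, leaving out each replicate, the methods' t-test and other choices of probe set.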

Additional observations from a re-analysis of the deposited data

How the results depend on the processing

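Rpl26l1 (1.35 to 1.52) and Rpl7l1 (-0.82 to -0.64) were called in all 16 alternatives fitted with limma. Of the 37 bright members, Rps24 alone was called in any of them, and its direction reversed, with the mean of its probe sets (-0.71) and with the brightest probe set of plain name (-1.51), which is the dimmer one. The count of members called higher was 1, and it was 2 with PLIER, which added Rpl3l, and 2 with every array as a replicate of its own, which added Rpl28. The count called lower was 3, and it was 1 with technical replicate 2 left out and 1 with it averaged with biological replicate 2. The median change of the members was 0.05, -7e-04 with PLIER, and 0.0147 without A16 replicate 2 to 0.0854 without A16 replicate 1. Median centring of the arrays moved all changes by about -0.03. The replicate block called 2 members higher, adding Rpl28, and 7019 genes against 5524. With 2 pairs the shared numbers are not shown to pair the samples; the deviations of the replicates 1 correlated at 0.557 over genes. The methods' t-test on 2 against 2 replicates called 4643 genes at an unadjusted p below 0.05 and 20 after adjustment. It called 0 members higher, 0 lower and 0 dimmer probe sets lower after adjustment, and 9 members at an unadjusted p below 0.05. Other alternatives left these counts within 1.5 times. Dim probe sets such as those of Rpl30 and Rpl39l1 lie near the lowest signals, where little change can be seen.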
